A study of Mus musculus with 12 samples.

Results

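Genes of the Fanconi anaemia core complex and of the FANCD2-FANCI pair were examined in mouse LSK cells with and without the gene of NIPA, before and after ionizing radiation. The 10 genes are Fanca, Fancb, Fancc, Fancd2, Fance, Fancg, Fanci, Fancl, Fancm and Ube2t, taken as rows of the expression table that carry exactly 1 of these symbols. This gave 9 genes with 1 row each, out of 22180 genes with a row of their own. Fanca shares its row with a second symbol and is not analysed here. Fancl is also named in the platform annotation in a row with several symbols, which was not used. All 9 passed the limit on brightness (a log2 value over 5.29 in at least 3 of the 12 arrays) and are among the 15348 genes tested.

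The Fanconi anaemia pathway repairs DNA strands that are covalently linked to each other. Its core complex is a ubiquitin ligase in which FANCL is the catalytic subunit and FANCM the anchor on DNA, and UBE2T is the ubiquitin-conjugating enzyme that works with it. Together they attach ubiquitin to FANCD2 and FANCI, which then clamp around DNA and bring in nucleases and recombination proteins. Inherited loss of the pathway depletes blood stem cells and leads to bone marrow failure.

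LSK cells are bone marrow cells without lineage markers that carry SCA1 and cKIT, a fraction enriched for haematopoietic stem and progenitor cells. Mice were wild type (WT) or NIPA knockout (KO), aged over 20 months and backcrossed to C57BL/6 for 10 generations or more. Zc3hc1 encodes NIPA, an F-box-like protein that takes part in marking cyclin B1 with ubiquitin. Each array holds the sorted cells of 3 mice, pooled and cultured with 30% FCS, IL-3, IL-6 and SCF for 30 min, then left untreated or given 4 Gy and harvested at 3 h. The 4 groups of 3 arrays are untreated WT, irradiated WT, untreated KO and irradiated KO, and all share the age, the sort and the cytokines. The sources used here do not say which part of Zc3hc1 is missing in the KO. The labels do not say whether untreated and irradiated arrays came from the same pools, so the p-values measure the spread between these arrays, which may in part be technical.

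Zc3hc1 had log2 values of 7.67 to 8.47 in the 6 WT arrays and 5.61 to 5.82 in the 6 KO arrays, so each array matched its genotype label. Kit, a gene of the sort, lay between 9.97 and 11.32, and the mean of 8 LSK genes lay between 8.88 and 9.39. The mean of 6 T and NK cell markers was 4.93 to 5.26, under the limit on brightness, while that of 6 B cell markers ranged from 5.61 to 7.39. Among the B cell markers, Ebf1 had 9.51 in untreated KO array 2 and 9.62 in irradiated KO array 3, and at most 7.42 elsewhere. Marker means were 7.14 to 8.65 for granulocytes, 7.35 to 8.58 for monocytes and macrophages and 7.57 to 8.27 for megakaryocytes. With 3 arrays a group, the number of arrays limits the precision.

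Transcripts of Fancd2, of its partner Fanci and of Ube2t were lower after irradiation in both genotypes. In WT cells 3 of the 9 genes fell, beside 2.7% of all genes tested, and without untreated WT array 2 the count was 1, Fancd2. In KO cells 4 of 9 fell, the fourth being Fancb, beside 3.2% of all genes tested. Averaged over WT and KO, 6 of 9 fell, Fancb, Fancc and Fance in addition to the first 3, beside 9.6% of all genes tested. Fancb passed the limit on brightness through its untreated arrays alone, since 5 of its 6 irradiated arrays lay under it, so its call is no support for these counts. Of the other 8 genes, 3 fell in WT, 3 in KO and 5 on average. None of the 9 rose in any of these comparisons, beside 2.13% of all genes tested in WT, 2.74% in KO and 6.9% on average. In either direction 4.83%, 5.94% and 16.5% of all genes tested passed. The median log2 difference of the 9 genes was -0.30 in WT and -0.39 in KO cells (-0.29 and -0.34 without Fancb). Over all genes tested the medians were 0.0039 and -0.022. A gene is said to have fallen where its limma p, adjusted by Benjamini-Hochberg over all genes tested, was under 0.05. In such pools, fewer cells of a type and less RNA per cell cannot be told apart.

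**Figure D1:**
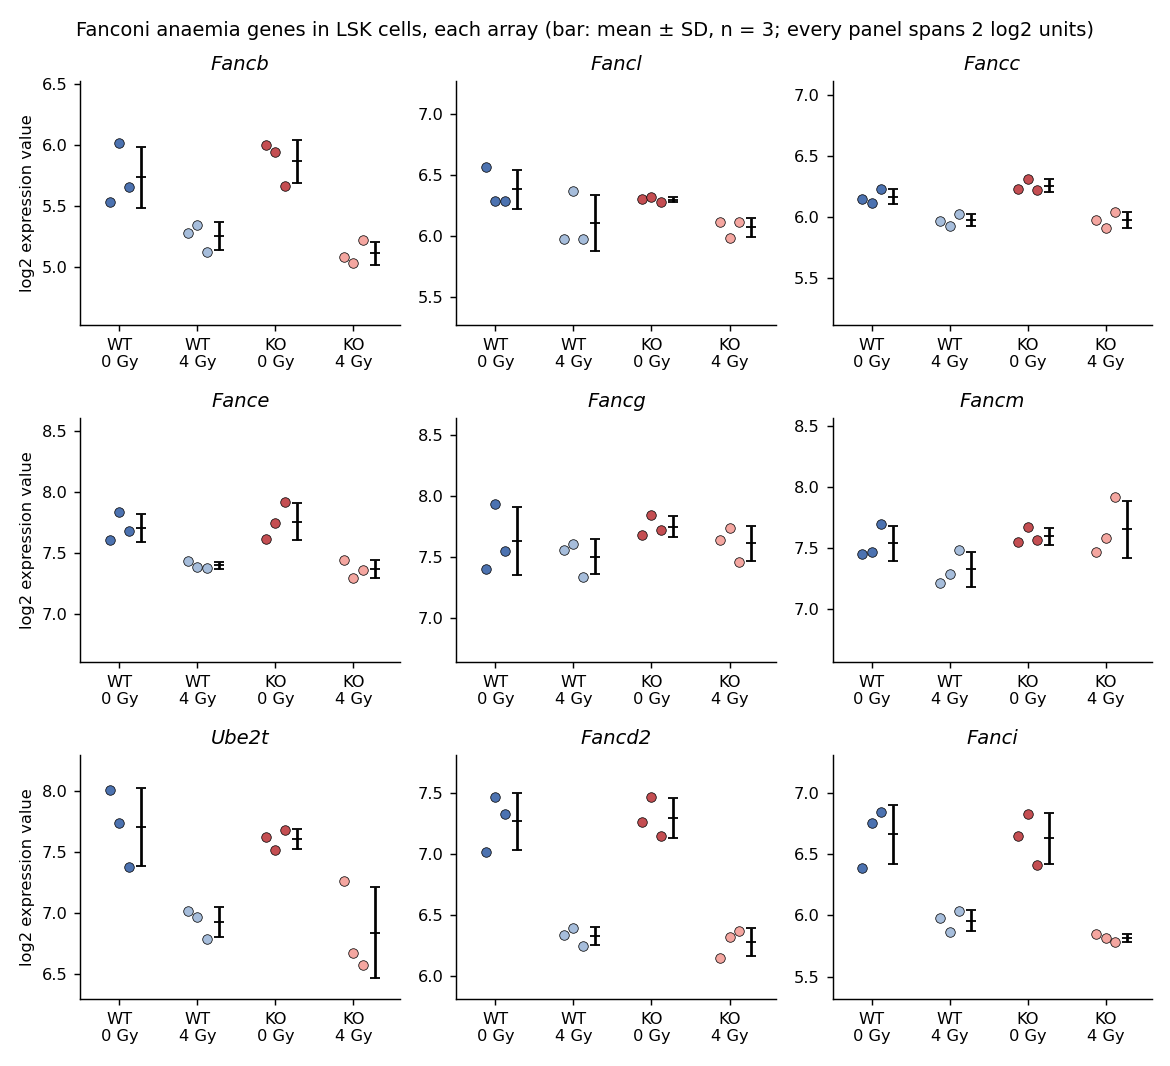
Log2 expression value (vertical axes, each spanning the same number of log2 units) of the 9 genes in untreated and irradiated WT and KO cells; points are single arrays and bars are the mean ± SD of 3 arrays. Fancd2, Fanci, Ube2t, Fancb, Fancc and Fance lie lower in all 6 irradiated arrays than in all 6 untreated ones, while the values of Fancg, Fancm and Fancl overlap.

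FANCD2 is the central substrate of the core complex. Fancd2 had log2 values of 7.01, 7.47 and 7.32 in untreated WT cells and 6.33, 6.39 and 6.25 in irradiated WT cells. In KO cells it had 7.26, 7.47 and 7.15 without irradiation and 6.15, 6.31 and 6.37 after it. The highest irradiated array, at 6.39, lay below the lowest untreated one, at 7.01. Fancd2 fell by 0.94 on the log2 scale in WT cells (SE 0.13, limma adjusted p = 0.00165), a 1.92-fold decrease, and by 1.02 in KO cells (SE 0.13, adjusted p = 0.000966), a 2.02-fold decrease. Fancd2 kept its call under all 22 alternatives tried in WT and all 21 in KO cells. A larger fall was seen in 1.13% of all genes tested in WT and in 0.801% in KO cells.

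FANCI forms a clamp with FANCD2 and is itself ubiquitinated. Fanci had log2 values of 6.39, 6.76 and 6.84 in untreated WT cells and 5.98, 5.86 and 6.04 in irradiated WT cells. In KO cells it had 6.65, 6.83 and 6.41 without irradiation and 5.85, 5.82 and 5.78 after it. As for Fancd2, no irradiated array reached an untreated one. Fanci fell by 0.71 in WT (SE 0.14, limma adjusted p = 0.0121) and by 0.82 in KO cells (SE 0.14, adjusted p = 0.00458). The WT call was lost without untreated WT array 2 (adjusted p = 0.0632) or 3 (0.0689).

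UBE2T is the ubiquitin-conjugating enzyme that works with the core complex. Ube2t had log2 values of 8.01, 7.74 and 7.38 in untreated WT cells and 7.02, 6.97 and 6.79 in irradiated WT cells. In KO cells it had 7.63, 7.52 and 7.68 without irradiation and 7.27, 6.67 and 6.58 after it. The groups did not overlap, and irradiated KO array 1 lay closest to the untreated level. Ube2t fell by 0.78 in WT (SE 0.19, limma adjusted p = 0.0342) and by 0.77 in KO cells (SE 0.19, adjusted p = 0.0324), with the largest SE of the 9 genes. These calls were less stable than those of Fancd2. The WT call was lost without untreated WT array 1 (adjusted p = 0.0955) or 2 (0.123), untreated KO array 1 (0.0505), or irradiated WT array 1 (0.0563), 2 (0.0714) or 3 (0.130). The KO call was lost without untreated KO array 1 (0.0984), 2 (0.0816) or 3 (0.0958), irradiated KO array 2 (0.124) or 3 (0.128), with only the KO arrays in the fit (0.0700) and after subtraction of array medians (0.0505). The average over both genotypes, a fall of 0.77 (SE 0.13, adjusted p = 0.00200), kept its call under all 20 alternatives tried for it.

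**Figure D2:**
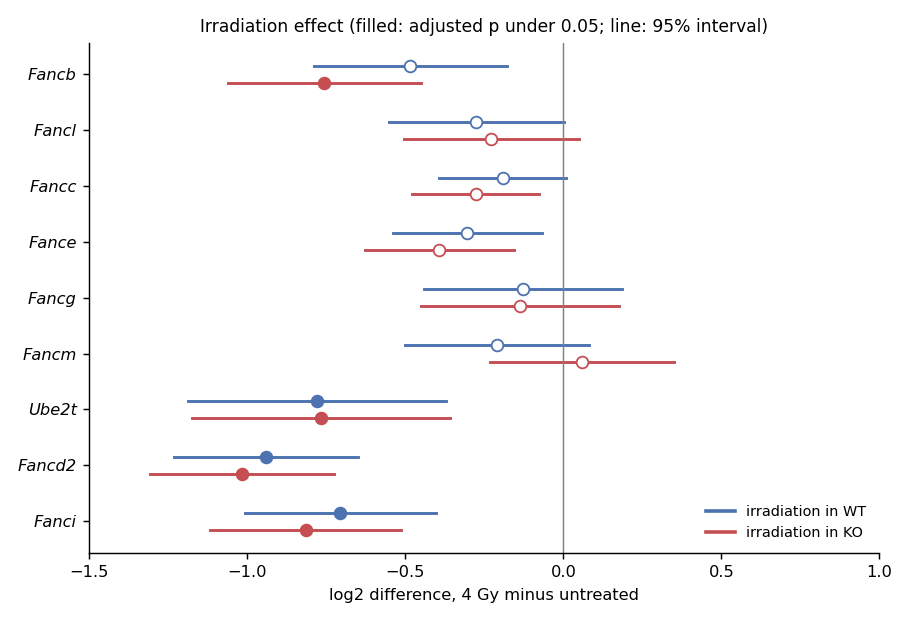
Log2 difference between irradiated and untreated cells (horizontal axis) of the 9 genes in WT and KO cells; lines are 95% intervals from limma and filled points have an adjusted p under 0.05. Fancd2, Fanci and Ube2t are filled in both genotypes and Fancb in KO cells. The intervals of Fancg, Fancl and Fancm include 0 in both genotypes.

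FANCB and FANCL belong to the catalytic module of the core complex, in which FANCL carries the ligase activity. Fancb had log2 values of 5.53, 6.01 and 5.66 in untreated WT cells and 5.28, 5.35 and 5.12 in irradiated WT cells. In KO cells it had 5.99, 5.94 and 5.67 without irradiation and 5.08, 5.03 and 5.22 after it. The groups did not overlap in either genotype, but 5 of the 6 irradiated arrays and none of the untreated ones lay at or below the limit on brightness, so Fancb was tested on account of its untreated arrays. All 3 irradiated KO arrays lay under the limit, so the size of the KO difference rests on values under it. The untreated KO mean of 5.87 stood 0.58 log2 units above the limit, and the measured irradiated KO mean was 5.11. The fitted KO difference of Fancb was -0.76 (SE 0.14, 95% interval -1.06 to -0.45, limma adjusted p = 0.00773). This interval also holds falls smaller than 0.58. In WT cells its difference was -0.48 (SE 0.14, adjusted p = 0.0711), and adjusted p = 0.0301 with the replicate number as a block in a fit of the WT arrays alone. Without untreated WT array 1 the WT value was -0.59 (adjusted p = 0.0464). Fancl had 6.57, 6.29 and 6.29 in untreated WT, 5.98, 6.37 and 5.98 in irradiated WT, 6.30, 6.32 and 6.28 in untreated KO and 6.12, 5.98 and 6.11 in irradiated KO cells. Its KO groups did not overlap, while irradiated WT array 2 lay above 2 of the untreated WT arrays. The average difference of Fancl was -0.25 (SE 0.090, adjusted p = 0.0771), and -0.32 (adjusted p = 0.0208) without irradiated WT array 2.

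FANCC and FANCE belong to the module that holds the FANCD2 substrate. Fancc had 6.15, 6.11 and 6.23 in untreated WT, 5.97, 5.93 and 6.02 in irradiated WT, 6.23, 6.32 and 6.22 in untreated KO and 5.98, 5.91 and 6.04 in irradiated KO cells. Its highest irradiated array lay under its lowest untreated one. Neither genotype passed the test alone, with -0.19 in WT (SE 0.093, limma adjusted p = 0.277) and -0.28 in KO cells (SE 0.093, adjusted p = 0.106), and the average fell by 0.23 (SE 0.065, adjusted p = 0.0281). That call was lost without untreated KO array 1 (0.0515) or 2 (0.0730), irradiated KO array 2 (0.0693), untreated WT array 3 (0.0713) or irradiated WT array 2 (0.0528). Fance had 7.60, 7.83 and 7.68 in untreated WT, 7.43, 7.39 and 7.38 in irradiated WT, 7.61, 7.74 and 7.91 in untreated KO and 7.44, 7.29 and 7.36 in irradiated KO cells. The groups did not overlap here either. Fance differed by -0.30 in WT (SE 0.11, adjusted p = 0.139) and by -0.39 in KO cells (SE 0.11, adjusted p = 0.0544, and 0.0444 without irradiated KO array 1). Its average fell by 0.35 (SE 0.077, adjusted p = 0.00878) and kept the call under all 20 alternatives.

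FANCG is an adaptor subunit that binds FANCA, and FANCM is the DNA translocase that anchors the complex. Fancg had 7.40, 7.94 and 7.55 in untreated WT, 7.56, 7.61 and 7.34 in irradiated WT, 7.68, 7.84 and 7.72 in untreated KO and 7.64, 7.74 and 7.46 in irradiated KO cells. Untreated and irradiated arrays overlapped in both genotypes. Its average difference was -0.13 with a 95% interval of -0.35 to 0.088 (limma adjusted p = 0.425). Fancm had 7.45, 7.46 and 7.70 in untreated WT, 7.21, 7.28 and 7.48 in irradiated WT, 7.55, 7.67 and 7.56 in untreated KO and 7.46, 7.58 and 7.91 in irradiated KO cells. Irradiated KO array 3 was the highest of all 12 for this gene. The irradiation differences of Fancm were -0.21 in WT (95% interval -0.50 to 0.081) and 0.058 in KO cells (-0.23 to 0.35), and the average was -0.077 (adjusted p = 0.648). The intervals of Fancg and Fancm lie above the whole interval of the Fancd2 average, -1.19 to -0.77.

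Of the 9 genes, 6 in WT and 7 in KO cells had irradiated arrays that all lay under the untreated ones (5 and 6 of 8 without Fancb), against 13.3% and 13.2% of all genes tested. Over the pooled 6 untreated and 6 irradiated arrays this held for 6 of 9 genes (5 of 8 without Fancb), against 4.68% of all genes tested. None of the 9 was higher without overlap, which held for 11.4% of all genes tested in WT, 10.2% in KO and 3.62% over the pooled arrays.

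Whether the knockout changes these transcripts was read from KO against WT at each dose. None of the 9 genes passed the limma test without irradiation or after it, beside 0.00652% of all genes tested, which is Zc3hc1 alone, in each comparison. At an unadjusted p under 0.05 there were 0 of 9 without irradiation and 1 of 9, Fancm, after it, beside 2.15% and 3.07% of all genes tested. Fancd2 differed between the genotypes by 0.026 without irradiation (95% interval -0.27 to 0.32) and by -0.048 after it (-0.34 to 0.24). For Fanci the differences were -0.033 (-0.33 to 0.27) and -0.14 (-0.44 to 0.16), for Ube2t -0.10 (-0.51 to 0.31) and -0.087 (-0.50 to 0.32). The 3 irradiated KO arrays of Fanci, 5.78 to 5.85, all lay under the 3 irradiated WT arrays, 5.86 to 6.04, the 1 case without overlap among the 9 genes, beside 3.83% of all genes tested that were lower without overlap there. Fancm was higher in irradiated KO than in irradiated WT cells by 0.33 (SE 0.13, 95% interval 0.035 to 0.62, adjusted p = 0.999), with 1 overlapping array on each side. Without irradiation none of the 9 genes was free of overlap, beside 3.55% of all genes tested that were lower and 4.4% that were higher, and after irradiation none was higher, beside 2.57%. Averaged over both doses, the intervals of the 9 genes lay within -0.38 and 0.40.

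**Figure D3:**
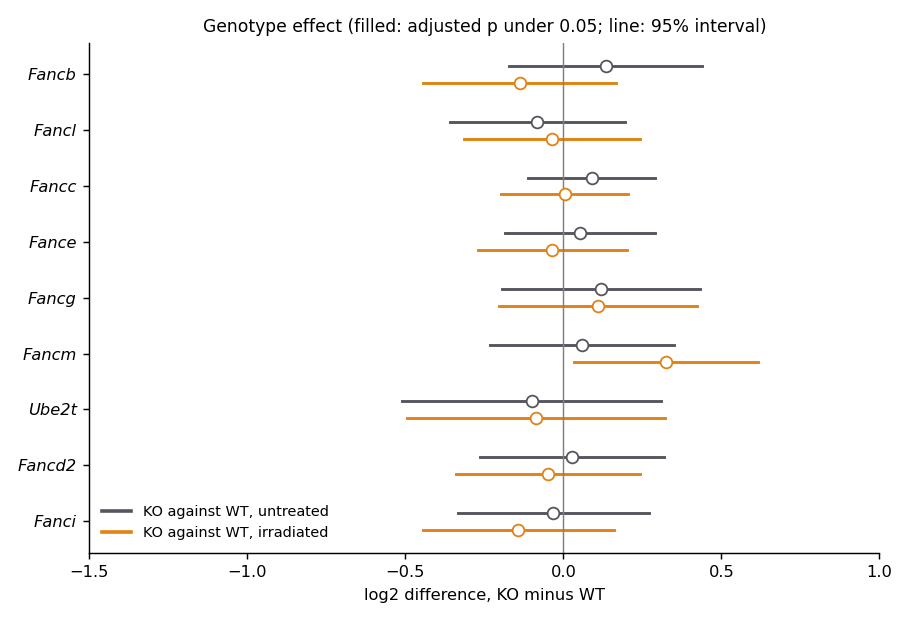
Log2 difference between KO and WT cells (horizontal axis) of the 9 genes without irradiation and after 4 Gy; lines are 95% intervals from limma, and an open point has an adjusted p of 0.05 or more. All 18 points are open, and the interval of Fancm after irradiation is the only one that leaves out 0.

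The irradiation response itself was compared between the genotypes by the interaction. No gene of the 9 passed it, as 0% of all genes tested did, and 0 of 9 had an unadjusted p under 0.05, beside 1.53% of all genes tested. The log2 difference between the KO and the WT response was -0.074 for Fancd2 (95% interval -0.49 to 0.34), -0.11 for Fanci (-0.54 to 0.32) and -0.27 for Fancb (-0.70 to 0.16). Fancb passed the test in KO and not in WT cells, and its interaction (limma adjusted p = 1.000) does not show that the genotypes differ. Fancm had the opposite sign, 0.27 (-0.14 to 0.68). These intervals are wide enough to hold differences of a size close to the irradiation effects of Fancc and Fance. That of Fancb also holds a difference larger than its WT irradiation difference of -0.48. The interaction of Ube2t was 0.013 with a wider interval, -0.57 to 0.59. The WT and KO irradiation differences are taken from separate arrays, whereas each genotype contrast shares its arrays with them. In the main fit the spread of a gene was estimated from the arrays of both genotypes together. The WT and KO p-values are therefore not independent of each other. Leaving out an array of the other genotype could end a call, as for Ube2t in WT cells.

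The promoters of Fanci, Ube2t and Fancb are shown with that of Fancg, which did not pass the test, so that sequence can be read beside values. Those of Fancc and Fance, which fell on average, are not printed. RefSeq windows (GRCm38.p6) of 250 bases before to 50 after the gene's start were found for 8 of the 9 genes, and that of Fancd2 was not in the table. Capitals mark CCAAT, the NF-Y box, and TTCCCGC, a core of E2F sites, each on either strand. On the opposite strand these read ATTGG and GCGGGAA.
Fanci, chr7:79392088-79392387, + strand: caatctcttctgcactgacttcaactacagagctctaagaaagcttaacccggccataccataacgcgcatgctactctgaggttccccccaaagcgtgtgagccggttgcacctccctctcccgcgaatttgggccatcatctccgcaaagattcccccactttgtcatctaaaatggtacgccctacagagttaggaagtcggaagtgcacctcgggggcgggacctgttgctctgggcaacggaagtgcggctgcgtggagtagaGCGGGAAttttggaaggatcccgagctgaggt
Ube2t, chr1:134962315-134962614, + strand: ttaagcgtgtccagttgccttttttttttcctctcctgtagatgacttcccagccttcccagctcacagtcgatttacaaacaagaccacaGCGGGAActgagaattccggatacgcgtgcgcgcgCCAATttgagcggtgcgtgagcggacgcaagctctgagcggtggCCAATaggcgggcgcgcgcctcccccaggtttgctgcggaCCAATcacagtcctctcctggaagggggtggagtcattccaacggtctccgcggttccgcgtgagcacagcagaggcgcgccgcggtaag
Fancb, chrX:164980342-164980641, + strand: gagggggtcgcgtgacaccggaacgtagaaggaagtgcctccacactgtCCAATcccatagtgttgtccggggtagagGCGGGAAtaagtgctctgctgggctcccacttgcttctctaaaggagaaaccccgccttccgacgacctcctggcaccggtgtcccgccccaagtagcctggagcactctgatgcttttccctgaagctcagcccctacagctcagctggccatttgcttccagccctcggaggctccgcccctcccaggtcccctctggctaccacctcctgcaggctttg
Fancg, chr4:43010252-43010551, - strand: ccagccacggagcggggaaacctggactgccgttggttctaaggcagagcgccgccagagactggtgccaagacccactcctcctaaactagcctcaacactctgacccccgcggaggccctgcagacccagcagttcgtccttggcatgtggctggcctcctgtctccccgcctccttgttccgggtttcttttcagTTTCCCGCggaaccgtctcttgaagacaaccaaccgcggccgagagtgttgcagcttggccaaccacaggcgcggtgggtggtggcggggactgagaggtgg
TTCCCGC was in 5 of the 8 windows (Fanci, Ube2t, Fancb, Fancg and Fancm) and in 4.6% of the 32851 windows of the table. Its first base in the printed orientation lay at 19 after the start in Fanci and at -159 in Ube2t, -172 in Fancb, -51 in Fancg and -54 in Fancm. This core was searched after the sequences had been seen. The longer E2F forms TTTCCCGC, TTTGGCGC and TTTCGCGC were found in 1 window, that of Fancg, where TTTCCCGC at -52 covers the core, and in 1.84% of all windows. CCAAT was in 5 of 8 windows and in 37.4% of all windows, with 3 matches in Ube2t, at -124, -80 and -40. The elements TTTGAA and TTCGAA, called CHR, were in 0 of 8 windows and in 19.2% of all windows. The core was present both in genes that fell, as in Fanci, and in genes that did not pass, as in Fancg and Fancm. It was absent from the windows of Fancc and Fance, which fell on average, and of Fancl, which did not pass.

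Genes with a course over the 12 arrays like that of Fancd2 were sought among all 15347 other genes tested. Likeness was the root mean square difference between log2 profiles, each centred on its own mean, and it is a description of these arrays. The 6 nearest were Pold2 (0.0999), Kntc1 (0.104), Pole (0.115), Tmpo (0.122), Rbl1 (0.123) and Pold1 (0.130). Pold1, Pold2 and Pole encode subunits of the replicative DNA polymerases delta and epsilon, Kntc1 a kinetochore protein, Tmpo a protein of the inner nuclear membrane and Rbl1 the pocket protein p107. Among the other 8 Fanconi genes Fanci was nearest (0.156, rank 14 of 15347), followed by Fancb (0.206, rank 64) and Ube2t (0.323, rank 619). Fancm was farthest (0.494, rank 5192). In untreated WT array 1, Fancd2, Fanci and all 6 nearest genes had their lowest value among the 6 untreated arrays, whereas Ube2t was at its highest there.

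**Figure D4:**
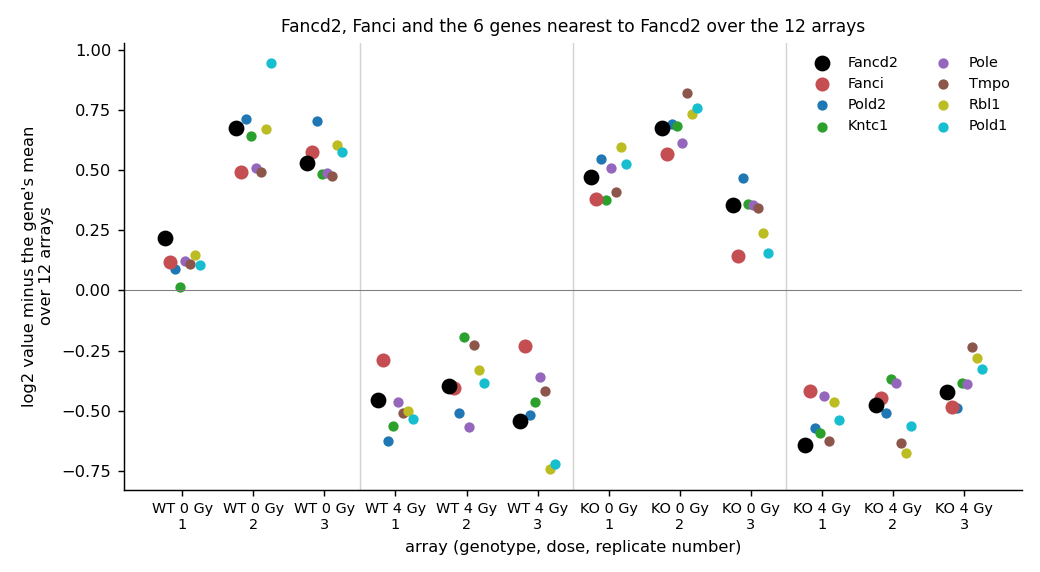
Log2 value minus the gene's mean over 12 arrays (vertical axis) of Fancd2, Fanci and the 6 genes nearest to Fancd2, by array (horizontal axis, grouped by genotype and dose; replicate numbers carry no order). All 8 genes are above 0 in the 6 untreated arrays and below 0 in the 6 irradiated ones, and among the untreated arrays each lies nearest to 0 in WT array 1.

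Other genes of the pathway were read from 6 lists by role, on the average of both genotypes, where 9.6% of all genes tested fell and 6.9% rose. Counts in WT cells are also given with the replicate number as a block in a fit of the WT arrays alone, chosen after seeing the data, where 7.95% of all genes tested fell and 5.81% rose. Among 7 other core and anchor factors 3 fell (median -0.33), all of them partners of FANCM on DNA: Cenpx by 0.77 (SE 0.13, limma adjusted p = 0.00171), Cenps by 0.52 and Faap24 by 0.53. In WT cells 1 of these 7 fell (3 with the replicate block in the WT arrays alone) and in KO cells 2, Cenpx and Cenps, whose KO calls were lost in 10 and 5 of 21 alternatives. Fancf, of the module with Fancc and Fance, had -0.33 (adjusted p = 0.0610), and Faap100, of the module with Fancb and Fancl, -0.23 (0.0736). Among 6 tested genes of the Bloom helicase complex and RPA, which bind FANCM or the DNA beside it, 4 fell (median -0.58): the helicase Blm by 0.61 (SE 0.086, adjusted p = 0.000509), its partner Rmi2 by 0.65 and the RPA subunits Rpa2 by 0.54 and Rpa3 by 1.01. Rpa3 lost its call without untreated KO array 2 (adjusted p = 0.0505), irradiated KO array 2 (0.0505) or untreated WT array 2 (0.0511). In each genotype 2 of 6 fell, Blm and Rpa2, and 4 of 6 in WT cells with the block. The calls of Rpa2 were lost in 14 of 22 alternatives in WT (adjusted p = 0.0430) and in 15 of 21 in KO cells (0.0460), and the WT call of Blm in 6 of 22.

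Of 5 tested genes of the ubiquitin cycle 4 fell on average (median -0.59), with 1 in WT and 1 in KO cells, Usp1 in both, and 3 in WT cells with the replicate block, Uhrf1 (adjusted p = 0.00976) and Atad5 (0.0118) in addition. The Usp1 calls were lost in 5 of 22 alternatives in WT and 3 of 21 in KO cells. Usp1, the protease that removes ubiquitin from FANCD2, fell by 0.73 (SE 0.11, limma adjusted p = 0.00106), while its activator Wdr48 had -0.015 (adjusted p = 0.919). Uhrf1, which binds crosslinked DNA, fell by 0.83, Atad5, a factor that unloads PCNA from DNA, by 0.59 and the ubiquitin ligase Rfwd3 by 0.32. Uhrf1 lost its call without untreated KO array 2 (adjusted p = 0.0543), irradiated KO array 2 (0.0525), untreated WT array 2 (0.0550) or irradiated WT array 3 (0.0524), and Atad5 without untreated KO array 2 (0.0556) or untreated WT array 3 (0.0522). Rfwd3 lost it in 10 of 20 alternatives, 7 of them single arrays left out (untreated KO 1 and 2, irradiated KO 2, untreated WT 2 and 3, irradiated WT 1 and 3), with adjusted p of up to 0.107.

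Of 5 tested recombination genes with a Fanconi name 4 fell on average (median -0.43), with 1 in WT, 3 in WT with the replicate block and 2 in KO cells. Brca2 fell by 0.84 (SE 0.14, limma adjusted p = 0.00146), its partner Palb2 by 0.39, the helicase Brip1 by 0.49 and Rad51c by 0.35, and Brca1 had -0.43 (adjusted p = 0.0648). The WT call was that of Brca2 (adjusted p = 0.0498) and was lost in 13 of 22 alternatives. The KO calls were those of Brca2, lost in 2 of 21, and of Rad51c (adjusted p = 0.0430), lost in 14 of 21. On average Rad51c lost its call in 11 of 20 alternatives, and leaving out untreated WT array 2 gave the highest adjusted p, 0.106. The other single arrays whose omission ended it were untreated KO 1 and 2, irradiated KO 2, untreated WT 3 and irradiated WT 1, 2 and 3. Of 11 tested incision and bypass genes 3 fell and 1 rose (median -0.0031), with 1 lower in WT, Mad2l2 (lost in 9 of 22 alternatives), and 0 in KO cells at the threshold. With the replicate block 2 fell and 1 rose in WT cells. Mad2l2, a subunit of polymerase zeta, fell by 0.45 (SE 0.084, adjusted p = 0.00337), Eme1, a partner of the nuclease MUS81, by 0.67 and the nuclease Dclre1a by 0.31, whereas the translesion polymerase Rev1 rose by 0.43 (adjusted p = 0.0474). For Eme1, irradiated KO array 3 (5.19) and irradiated WT array 3 (5.28) lay under the limit on brightness, and no untreated array did. The scaffold Slx4 (0.075), the nuclease genes Ercc4 (0.026), Mus81 (-0.065) and Fan1 (0.092) had adjusted p of 0.508 to 0.891. Rev1 lost its call without a limit on brightness (0.0581) and without each single array except irradiated KO 1 and irradiated WT 1 (up to 0.110), and Dclre1a without untreated KO 1 or 2, irradiated KO 2, untreated WT 3 or irradiated WT 1, 2 or 3 (up to 0.0735).

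Of 7 kinase genes and their cofactors that act on the pathway, 6 fell on average (median -0.58), with 3 in WT, 5 in WT with the replicate block and 2 in KO cells. Atm, the kinase activated by double-strand breaks, fell by 0.86 (SE 0.085, limma adjusted p = 3.89e-05), Cdk2 by 0.59 and Atrip, the partner of ATR, by 0.34. Cdk1, the kinase of mitotic entry, fell by 2.05 on the log2 scale (adjusted p = 1.2e-05). Atr itself had -0.21 (adjusted p = 0.131).

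**Figure D5:**
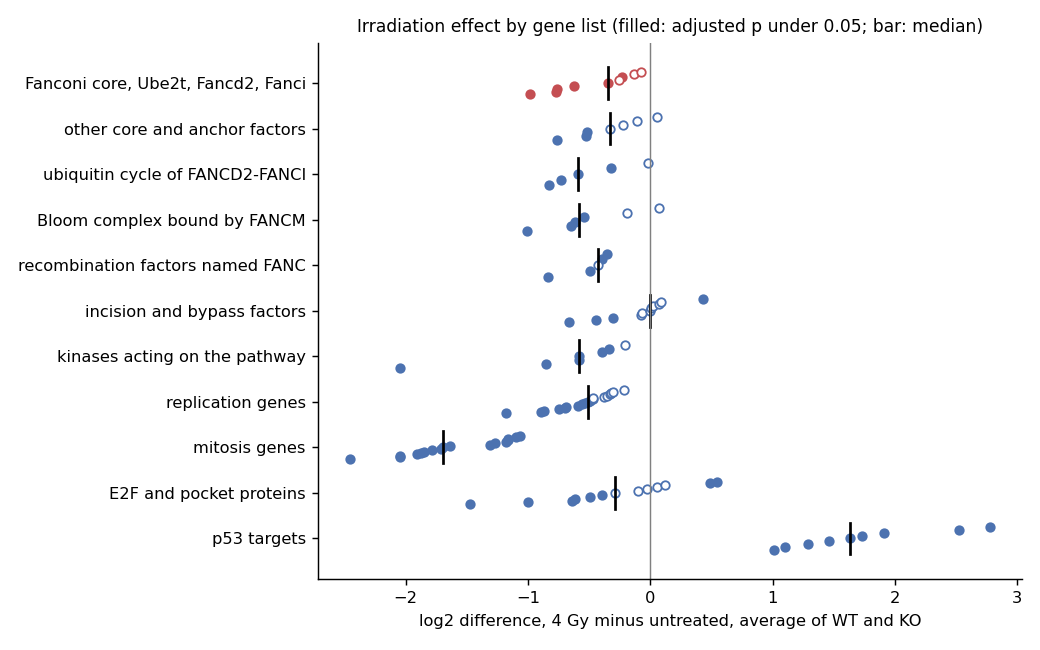
Log2 difference between irradiated and untreated cells, averaged over WT and KO (horizontal axis), for each gene of the Fanconi set, the 6 pathway lists and 4 context lists (rows); filled points have an adjusted p under 0.05 and black bars are medians. The Fanconi median was -0.35 (-0.30 without Fancb). Those of the context lists were -1.70 for mitosis genes, -0.51 for replication genes, -0.29 for E2F and pocket proteins and 1.63 for p53 targets. The incision and bypass list is centred near 0.

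Cell cycle genes moved with the same arrays. Of 19 tested replication genes 12 fell on average (median -0.51), and their mean per array was 8.52 to 9.0 in untreated and 8.03 to 8.38 in irradiated arrays. All 17 tested mitosis genes fell (median -1.70), with array means of 8.27 to 8.86 and 6.76 to 7.56. Of 13 tested genes of the E2F and pocket protein list 6 fell and 2 rose (median -0.29), and all 9 tested p53 targets rose (median 1.63). Erythroid markers were lower in irradiated arrays as well, with 4 of 5 tested genes that fell and array means over 5 of 8 listed markers of 6.68 to 7.24 untreated and 5.91 to 6.29 irradiated. Of the other markers, 2 of 8 tested LSK genes fell and none of the megakaryocyte, granulocyte, monocyte, B cell, T and NK cell, mast cell or endothelial genes passed the test. The part of the cell cycle and of the erythroid genes in the lower level of the Fanconi genes was not tested.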

How the data were processed

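Gene expression of pooled LSK cells was measured on 12 Affymetrix arrays. The values are the authors' deposited log2 values, 1 per probe set and array, made with RMA in the R package oligo per the submitters' processing notes. Versions and genome build remain not given in the sources used here. RMA sets the probe values of all arrays to 1 distribution before they are summarised per probe set, so a shift of all genes together cannot be seen. Array medians lay between 5.74 and 5.85.

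Of 41345 rows, 23521 carry 1 symbol, 1814 several and 16010 none in the platform annotation. Symbols were updated through RefSeq gene IDs (23328 matched). The brightest row of a gene was used. Genes over the 40th percentile of the table in at least 3 arrays were tested.

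The tests used limma 3.58.1 (R 4.3.3) in 1 fit over all 12 arrays with 4 group means, two-sided, adjusted by Benjamini-Hochberg over 15348 genes, with a threshold of 0.05. The fit was tested on simulated data.

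Replicate numbers come from the sample titles. Deviations from group means of same-numbered untreated and irradiated arrays correlated at 0.491, 0.476 and 0.420 in WT and at 0.474, -0.239 and -0.122 in KO cells. Same-numbered WT arrays thus deviated together, and of the KO arrays only those numbered 1 did. The labels do not say whether such arrays share a pool, and the main fit used no pairing. Correlations between arrays of a group were 0.960 to 0.986, so no array repeats another.

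The genes, lists and tests were chosen with earlier results of these data known. The text names the 10 genes, Zc3hc1, up to 4 genes a pathway list with the smallest p among those past the average test, and the 6 genes nearest to Fancd2. Genes named beside these (Fancf, Faap100, Wdr48, Brca1, Slx4, Ercc4, Mus81, Fan1, Atr) were chosen after their values were seen. Of the other listed pathway genes, Slx1b and Poln share rows, Rmi1 was under the brightness limit, and some are not reported here. Alternatives were the brightness limit, scaling, averaging of rows, the prior, the arrays in the fit, the replicate number as a block and each array left out. For an irradiation difference in WT or in KO cells, leaving out an array of the other genotype changes the spread and not the difference. Counts of alternatives include these weaker checks.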

Additional observations from a re-analysis of the deposited data

How the results depend on the processing

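Over 12 single arrays left out, the count of Fanconi genes that fell in WT cells ranged from 1 (without untreated WT array 2, Fancd2 alone) to 3, in KO cells from 3 to 5 and on average from 5 to 6. Over the other settings the counts were 3 to 4, 3 to 4 and 5 to 6. For KO against WT and the interaction, 0 of the 9 genes passed in any setting. Of 1271 values recomputed for the 9 genes, 1247 stayed on their side of the threshold, 20 lost a call, 4 gained one and 0 called values turned sign. These values include the KO against WT comparisons and the interaction, where none of the 9 genes had a call to lose. All losses and gains lay in the irradiation comparisons, so the total does not measure how stable the irradiation calls are. The stricter brightness limit left Fancb untested, and Eme1 among the named pathway genes. For named pathway genes, 151 of 1446 values lost a call and 45 gained one. These were recomputed in the irradiation comparisons alone, so their share is not comparable with that of the 9 genes.

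With the replicate block within genotype, 3 Fanconi genes fell in WT, 4 in KO cells and 6 on average, as without it. Over all genes that block gave 1228 calls in WT against 742 and 1390 in KO against 911. Fitted to the WT arrays alone (chosen after seeing the data), it gave 2111 calls and 4 Fanconi genes, Fancb in addition, and it changed no other call of the 9 genes in WT cells. Same-numbered KO arrays correlated at 0.474, -0.239 and -0.122, while untreated KO array 2 correlated best with irradiated array 3 (0.438) and untreated array 3 with irradiated array 2 (0.517), a hint from the data and not from the labels, so the block by number is no fair check in KO cells. With only the KO arrays compared 557 genes passed. With single arrays left out the counts over all genes ranged from 314 to 1040 in WT and from 392 to 1573 in KO cells.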
